A study of Homo sapiens with 8 samples.

Results

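The 10 genes described here encode P-TEFb, the proteins that hold it inactive, and the elongation complexes that it works with. They were taken by symbol (CCNT1, CCNT2, CDK9, HEXIM1, LARP7, AFF4, ELL, ELL2, ICE1 and ICE2) and matched to the Ensembl identifiers of the count tables, and all 10 were found among the 64253 identifiers and were among the 20305 genes that passed the filter on low counts. The libraries came from 2 human colon cancer lines, HCT-8, in which the chemotherapy drug 5-fluorouracil (5-FU) is effective, and HCT-8/FU, its 5-FU-resistant counterpart. The study used these libraries to look for kinases that might act on coilin, the marker protein of the nuclear structures called Cajal bodies. RNA-seq was run on 4 groups with 2 replicates each. The first is HCT-8 in plain culture (called sensitive cells below) and the second HCT-8/FU in plain culture (resistant cells). The third is HCT-8 grown in conditioned medium (CM) that HCT-8 had been cultured in, labelled CM of HCT-8 and called sensitive CM. In the last, labelled CM of HCT-8/FU and called resistant CM, HCT-8 grew in medium from HCT-8/FU, so the cells sequenced in both CM groups were of the sensitive line. The CM had been collected over 48 h of culture, and the labels name no 5-FU treatment for any library. HCT-8/FU was obtained as 1 resistant line, and how its resistance was raised and how long cells stayed in CM are not given in the sources used here. Nothing in the labels says that replicates were separate cultures, so p-values measure the spread between these samples, which may be technical.

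P-TEFb is the kinase CDK9 bound to cyclin T1 or cyclin T2, the products of CCNT1 and CCNT2. It phosphorylates the RNA polymerase II tail and the factors that hold paused polymerase near the start of a gene, which lets the polymerase move into elongation. HEXIM1 and LARP7 belong to the 7SK ribonucleoprotein: LARP7 binds and stabilizes the 7SK RNA, and HEXIM1 inhibits the kinase that the particle holds. AFF4 is the scaffold of the super elongation complex, where it joins P-TEFb to ELL or ELL2, factors that speed up the polymerase. ICE1 is the scaffold of the little elongation complex, which also holds ELL and ICE2 and acts at the genes of small nuclear RNAs (snRNAs), the RNA core of the spliceosome. Many snRNA genes lie near Cajal bodies.

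CCNT2, AFF4, ICE1 and ICE2 were called higher in both resistant cells and cells in resistant CM, and CDK9 and ELL were called lower in resistant cells. The promoters of these genes, picked by these calls, are shown. LARP7, called higher in resistant cells alone, is not among them. Each window holds the bases from 250 before to 50 after a RefSeq start site (RefSeq, GRCh38.p14, read along the gene's strand). Capitals mark matches on either strand to 1 of 9 short motifs.
CCNT2, chr2:134918572-134918871, plus strand: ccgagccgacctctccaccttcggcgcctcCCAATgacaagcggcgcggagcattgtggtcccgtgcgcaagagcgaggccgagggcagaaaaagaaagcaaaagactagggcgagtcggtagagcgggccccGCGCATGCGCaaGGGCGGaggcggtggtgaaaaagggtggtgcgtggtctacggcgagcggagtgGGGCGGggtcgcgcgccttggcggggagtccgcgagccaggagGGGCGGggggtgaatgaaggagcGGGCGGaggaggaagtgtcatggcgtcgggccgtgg
AFF4, chr5:132963585-132963884, minus strand: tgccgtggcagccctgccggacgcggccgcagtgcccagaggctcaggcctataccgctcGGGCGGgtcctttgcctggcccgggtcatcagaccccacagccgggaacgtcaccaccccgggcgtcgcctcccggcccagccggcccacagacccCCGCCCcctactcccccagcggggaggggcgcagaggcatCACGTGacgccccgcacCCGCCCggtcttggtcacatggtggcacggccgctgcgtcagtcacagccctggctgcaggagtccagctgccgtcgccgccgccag
ICE1, chr5:5422427-5422726, plus strand: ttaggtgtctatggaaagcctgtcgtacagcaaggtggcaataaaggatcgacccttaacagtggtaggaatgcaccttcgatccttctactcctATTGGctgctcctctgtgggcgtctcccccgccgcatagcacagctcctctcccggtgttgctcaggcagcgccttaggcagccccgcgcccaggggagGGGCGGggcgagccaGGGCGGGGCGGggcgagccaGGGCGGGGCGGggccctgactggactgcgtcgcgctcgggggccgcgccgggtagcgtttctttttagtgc
ICE2, chr15:60479093-60479392, minus strand: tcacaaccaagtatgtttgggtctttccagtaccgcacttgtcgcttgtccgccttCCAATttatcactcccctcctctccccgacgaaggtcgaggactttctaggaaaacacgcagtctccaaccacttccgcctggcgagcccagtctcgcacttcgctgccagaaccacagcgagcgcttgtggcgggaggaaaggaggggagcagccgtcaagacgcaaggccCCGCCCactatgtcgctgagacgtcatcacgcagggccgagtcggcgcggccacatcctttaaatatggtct
CDK9, chr9:127785784-127786083, plus strand: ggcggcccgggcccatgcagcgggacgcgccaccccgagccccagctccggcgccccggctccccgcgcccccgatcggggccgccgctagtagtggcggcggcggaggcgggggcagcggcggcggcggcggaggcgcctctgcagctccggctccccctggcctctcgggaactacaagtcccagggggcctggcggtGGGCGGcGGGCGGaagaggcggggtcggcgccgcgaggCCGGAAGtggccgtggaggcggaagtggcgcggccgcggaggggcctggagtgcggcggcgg
ELL, chr19:18522021-18522320, minus strand: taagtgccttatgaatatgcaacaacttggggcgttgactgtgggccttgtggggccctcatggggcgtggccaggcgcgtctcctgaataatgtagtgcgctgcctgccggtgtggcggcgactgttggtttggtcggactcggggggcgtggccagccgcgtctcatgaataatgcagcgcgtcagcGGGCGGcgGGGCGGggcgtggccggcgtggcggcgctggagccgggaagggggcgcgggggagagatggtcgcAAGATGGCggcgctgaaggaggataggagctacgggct
Overlapping matches were kept, as in the ICE1 repeat of GGGCGG and in CCNT2, where GCATGCGC matched on both strands. Promoter windows were at hand for 9 of the 10 genes, 11 windows in all, as some genes had more than 1. A gene counted if any of its windows matched, whereas the share over all genes is per window, so the units differ. GGGCGG, the GC box, was in all 9 and in 45% of the 35114 promoter windows of all genes. CCAAT was in 6 of the 9 genes, CCNT2, ICE1 and ICE2 among them, and in 34.6% of all windows. CACGTG, the E-box, was in AFF4 and CCNT1 and in 7.26% of all windows, and GCATGCGC was in CCNT2 and HEXIM1 and in 3.05%. CCGGAAG was in CDK9 and CCNT1 against 10.3% of all windows, and AAGATGGC was in ELL against 2.89%. TATAAA matched in HEXIM1 alone, starting at base -29 from the start site, and in 11.5% of all windows. TGACGTCA matched in LARP7 and in 1.85% of all windows, and TCGCGAGA matched in none of the 9 and in 1.15% of all windows.

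Reads assigned to genes ranged from 5804124 to 34881349 per library. One library each of sensitive cells, resistant cells and sensitive CM had 20% to 29.6% of its records not aligned, against 3.58% to 4.43% in the other 5. All 9 colon epithelial markers were detected in all 8 libraries, from KRT20 at 4.79 to 16.9 CPM (counts scaled to the library's normalized size) to KRT8 at 4720 to 5870. The fibroblast gene COL1A2 and the leukocyte genes PTPRC, CD3E and MS4A1 were at 0. Of the same fibroblast markers, COL1A1 was at 8.19 to 13.8 CPM and PDGFRB at 4.35 to 9.04. Of the leukocyte markers, CD14 was at 0.355 to 1.51 CPM and CD68 at 0.167 to 0.691. The 6 fibroblast markers summed to 12.5 to 22.3 CPM and the 5 leukocyte markers to 0.739 to 1.96 CPM. The 3 endothelial markers summed to 1.27 to 2.45 CPM. Libraries also differed in how a gene's count followed its exonic GC content. Across genes the rank correlation of a gene's deviation with GC content was -0.488 and -0.452 in resistant cells, 0.0517 and 0.215 in sensitive cells, 0.375 and 0.534 in sensitive CM, and -0.0652 and -0.0619 in resistant CM. These values moved with the groups, so fold changes corrected for GC content and length are given as well. The part of GC content in the results was not tested.

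Levels are in CPM after TMM normalization. In each comparison a gene was called differentially expressed (DE) at a false discovery rate (FDR) of at most 0.05 and a log2 fold change of at least 0.58 in size, and the ± after a log2 fold change is its standard error. The edgeR quasi-likelihood test gave the p-values, which were adjusted over all 20305 genes. In resistant cells against sensitive cells, 5 of the 10 genes were called higher (CCNT2, LARP7, AFF4, ICE1 and ICE2) and 2 lower (CDK9 and ELL), beside 13.2% and 8.12% of all genes tested. In resistant CM against sensitive CM, 4 were called higher (CCNT2, AFF4, ICE1 and ICE2) and 0 lower, beside 7.97% and 1.28% of all genes. The 10 genes had a median log2 fold change of 0.47 in resistant cells and 0.40 in resistant CM, where that of all genes was 0.01 and -0.06. After the correction the medians of the 10 were 0.15 and -0.06. The corrected fit called ICE1 higher and ELL2 lower in resistant cells, beside 7.29% and 7.95% of all genes, and called CCNT2 and ICE1 higher in resistant CM, beside 2.71% of all genes higher and 2.13% lower.

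**Figure D1:**
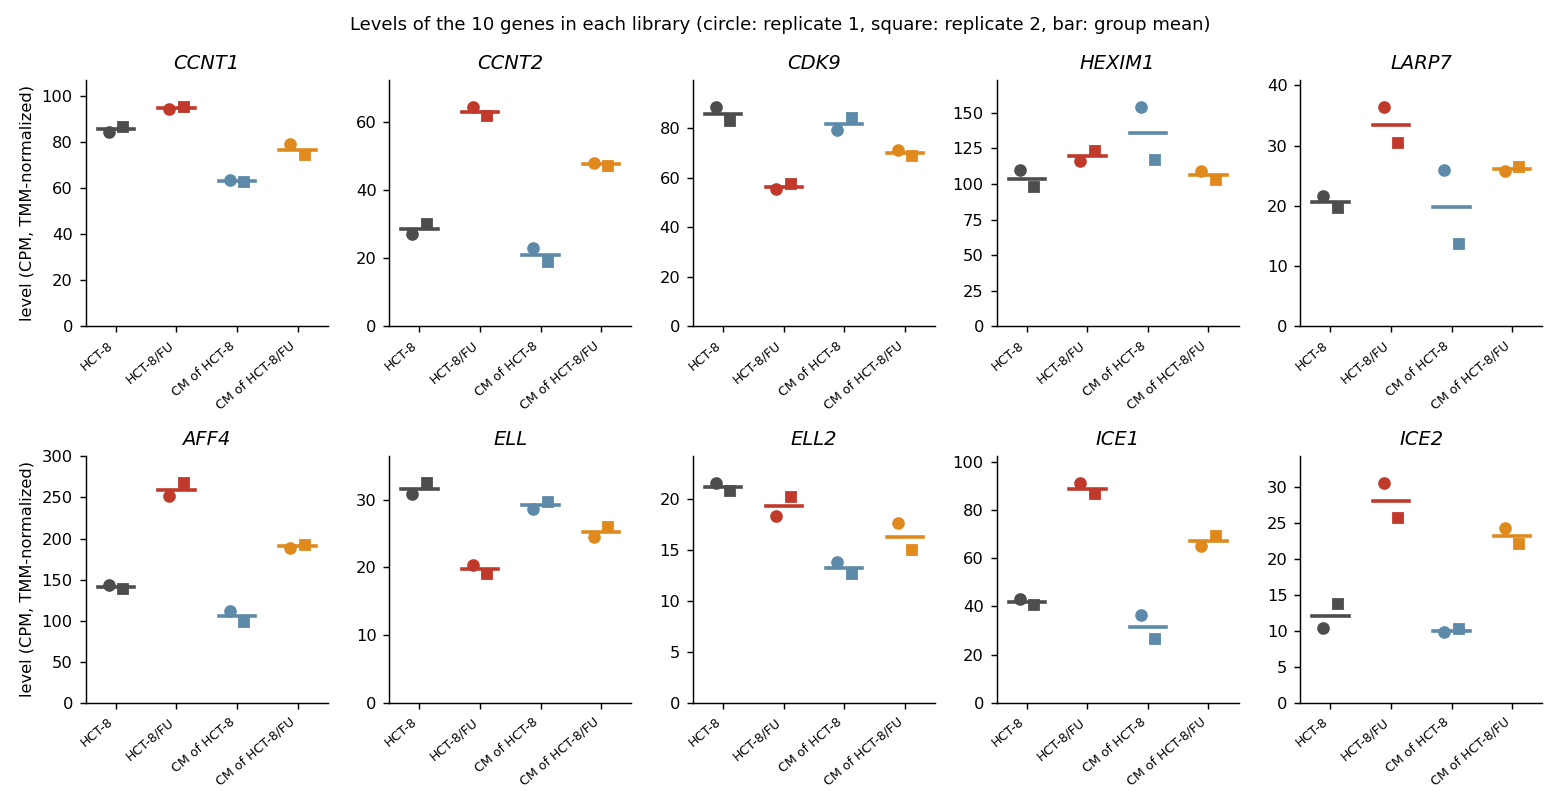
Level of each gene (y axis, TMM-normalized CPM, starting at 0) in the 8 libraries by group (x axis, named as labelled: HCT-8 sensitive and HCT-8/FU resistant), with a circle for replicate 1, a square for replicate 2 and a bar for the group mean. The group means of CCNT2, AFF4, ICE1, ICE2 and LARP7 share 1 order, from sensitive CM through sensitive cells and resistant CM to resistant cells. For LARP7 the first 2 groups overlap. CCNT2, AFF4, ICE1 and ICE2 were called higher in both comparisons, which fixes part of this order. How many of all genes have it was not counted. CDK9 and ELL are lowest in resistant cells, with resistant CM next.

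Of the 2 cyclin T genes of P-TEFb, CCNT2 was called in both comparisons and CCNT1 in neither. The difference between the genes was not tested. CCNT2 was at 27.1 and 30 CPM in sensitive cells, 64.3 and 61.7 in resistant cells, 22.9 and 18.9 in sensitive CM, and 48 and 47.1 in resistant CM. No pair of groups overlapped, and the libraries of resistant cells and of resistant CM were the high ones. CCNT2 rose by 1.13 ± 0.11 on the log2 scale in resistant cells (2.19-fold, adjusted p = 1e-06) and by 1.21 ± 0.11 in resistant CM (2.32-fold, adjusted p = 2e-06). With the correction these values were 0.53 and 0.63, the first under the fold threshold. CCNT1 was at 84.4 and 86.7 CPM in sensitive cells, 94.5 and 95.1 in resistant cells, 63.5 and 62.8 in sensitive CM, and 78.9 and 74.4 in resistant CM. Its groups stood apart by small steps: the log2 fold change was 0.15 ± 0.079 in resistant cells (adjusted p = 0.17) and 0.28 ± 0.078 in resistant CM (adjusted p = 0.02), neither past the fold threshold. With the correction these were -0.29 (adjusted p = 0.024) and -0.12 (adjusted p = 0.45). The first of these passed the FDR in the opposite direction, under the fold threshold.

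Within a library, the share of 1 gene in a pair does not depend on the library's scaling. Per exonic length, CCNT2 made up 20.7% and 21.9% of the 2 cyclin T genes in sensitive cells, 35.6% and 34.5% in resistant cells, 22.6% and 19.7% in sensitive CM, and 33% and 34% in resistant CM. The 4 libraries of resistant cells and of resistant CM lay above the other 4. With 2 libraries against 2 a permutation test cannot go below 0.333, so none was run on shares. The log2 fold change of CCNT2 exceeded that of CCNT1 by 0.98 in resistant cells and by 0.93 in resistant CM, and by 0.82 and 0.75 with the correction.

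CDK9, the kinase subunit, went the other way. Its level was 88.5 and 83 CPM in sensitive cells, 55.3 and 57.5 in resistant cells, 79.1 and 84 in sensitive CM, and 71.3 and 68.9 in resistant CM. The libraries of resistant cells were the lowest, resistant CM lay next, and sensitive cells and sensitive CM overlapped. CDK9 fell by 0.61 ± 0.085 on the log2 scale in resistant cells (adjusted p = 4.7e-05). It stood close to the fold threshold, at -0.57 without sensitive-cell replicate 1, at -0.52 with another TMM reference library and at -0.37 with the correction (adjusted p = 0.02). In resistant CM the value was -0.22 ± 0.081 (adjusted p = 0.068), and -0.05 with the correction.

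**Figure D2:**
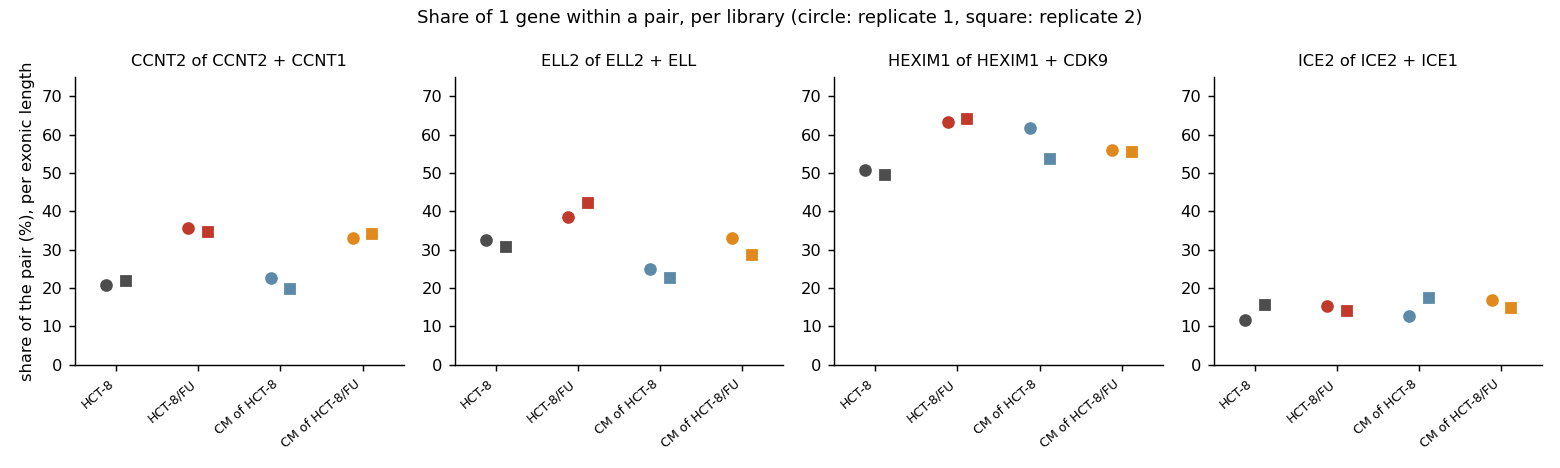
Share of the first-named gene in a pair (y axis, % of the summed CPM per exonic length of both genes, starting at 0) in each library by group (x axis), with a circle for replicate 1 and a square for replicate 2. CCNT2 made up 33% to 35.6% of its pair in the libraries of resistant cells and of resistant CM, against 19.7% to 22.6% in the others, and ICE2 stayed between 11.6% and 17.4% of its pair.

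Of the 7SK proteins, HEXIM1 was called in none of the comparisons. HEXIM1, the kinase inhibitor, was at 110 and 97.7 CPM in sensitive cells, 116 and 123 in resistant cells, 154 and 117 in sensitive CM, and 109 and 103 in resistant CM. Sensitive CM replicate 1 was the highest library and the other replicate overlapped resistant cells. The log2 fold change was 0.20 ± 0.11 in resistant cells (adjusted p = 0.18) and -0.35 ± 0.11 in resistant CM (adjusted p = 0.035, under the fold threshold), and with the correction 0.26 and -0.25 (adjusted p = 0.18 and 0.30). As counted, the second value was -0.54 without sensitive CM replicate 2 and -0.15 without replicate 1. HEXIM1 made up 50.8% and 49.4% of the summed HEXIM1 and CDK9 level per length in sensitive cells, 63.4% and 64% in resistant cells, 61.8% and 53.7% in sensitive CM, and 55.9% and 55.4% in resistant CM. The libraries of resistant cells held the highest shares of the inhibitor and the libraries of sensitive cells the lowest. The 2 genes differ in GC content, 48.3% for HEXIM1 and 58.9% for CDK9. The log2 fold change of HEXIM1 exceeded that of CDK9 by 0.81 in resistant cells, and by 0.64 with the correction. In resistant CM the difference was -0.12, and -0.19 with the correction.

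LARP7, which binds 7SK RNA, was at 21.6 and 19.7 CPM in sensitive cells, 36.4 and 30.4 in resistant cells, 25.9 and 13.7 in sensitive CM, and 25.8 and 26.4 in resistant CM. The 2 libraries of sensitive CM spanned the levels of sensitive cells and reached that of resistant CM. LARP7 rose by 0.73 ± 0.20 in resistant cells (adjusted p = 0.0099). That call was lost without sensitive-cell replicate 2 (0.63, adjusted p = 0.16), without resistant-cell replicate 1 (0.56, adjusted p = 0.18), with DESeq2 (0.71, adjusted p = 0.093) and with the correction (0.04). In resistant CM the value was 0.49 ± 0.20 (adjusted p = 0.10), and it hung on the spread of sensitive CM: it was 0.02 without sensitive CM replicate 2 and 0.93, past the threshold, without replicate 1.

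AFF4, the scaffold of the super elongation complex, had 144 and 139 CPM in sensitive cells, 252 and 267 in resistant cells, 112 and 98.5 in sensitive CM, and 189 and 192 in resistant CM. The groups did not overlap. AFF4 rose by 0.87 ± 0.079 in resistant cells (1.83-fold, adjusted p = 6.8e-07) and by 0.87 ± 0.078 in resistant CM (1.82-fold, adjusted p = 2.3e-06), and both values were 0.39 with the correction, past the FDR and under the fold threshold. CCNT1 has the same exonic GC content as AFF4, 40.6%. The log2 fold change of AFF4 exceeded that of CCNT1 by 0.73 in resistant cells and by 0.58 in resistant CM. The 2 genes differ in exonic length, 11281 and 7371 bases. All genes in a bin of GC content centred on 41.25% had a median of 0.37 and a 90th percentile of 1.27 in resistant cells. In resistant CM these were 0.26 and 1.08, so AFF4 lay between median and 90th percentile in both. The part of GC content was not tested.

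The ELL factors, partners of AFF4 and, for ELL, of ICE1, were called higher in neither comparison. ELL was at 30.8 and 32.4 CPM in sensitive cells, 20.3 and 19.1 in resistant cells, 28.7 and 29.7 in sensitive CM, and 24.5 and 26 in resistant CM. The group of resistant cells was again the lowest, and no groups overlapped. ELL fell by 0.68 ± 0.11 in resistant cells (adjusted p = 0.00019; -0.44 with the correction, under the fold threshold), and in resistant CM the value was -0.21 ± 0.10 (adjusted p = 0.18; -0.07 with the correction).

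ELL2 was at 21.5 and 20.8 CPM in sensitive cells, 18.3 and 20.2 in resistant cells, 13.8 and 12.6 in sensitive CM, and 17.6 and 15 in resistant CM. Its log2 fold change was -0.15 ± 0.14 in resistant cells (adjusted p = 0.45) and 0.32 ± 0.14 in resistant CM (adjusted p = 0.12). With the correction it was called lower in resistant cells, at -0.72 (adjusted p = 0.0015), and in resistant CM it was at -0.23 (adjusted p = 0.36). Per length, ELL2 made up 32.5% and 30.8% of the ELL and ELL2 pair in sensitive cells, 38.4% and 42.3% in resistant cells, 25% and 22.7% in sensitive CM, and 33.1% and 28.5% in resistant CM. The 2 genes differ in GC content, 38.3% for ELL2 and 59.5% for ELL. The log2 fold change of ELL2 exceeded that of ELL by 0.53 in resistant cells as counted, and with the correction the difference was -0.28, so the direction within this pair turned.

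ICE1, the scaffold of the little elongation complex, was called higher in resistant cells and in resistant CM, with and without the correction. Over 19 alternatives each, its log2 fold change ran from 0.81 to 1.19 in resistant cells and from 0.88 to 1.34 in resistant CM. Its level was 43.2 and 40.6 CPM in sensitive cells, 91.1 and 86.6 in resistant cells, 36.5 and 26.4 in sensitive CM, and 65 and 69.1 in resistant CM. The libraries of resistant cells and of resistant CM were the high ones, with no overlap. ICE1 rose by 1.10 ± 0.12 in resistant cells (2.14-fold, adjusted p = 4.3e-06) and by 1.13 ± 0.12 in resistant CM (2.19-fold, adjusted p = 9.5e-06), and by 0.82 and 0.88 with the correction. ICE2, a further subunit of the same complex, was at 10.4 and 13.8 CPM in sensitive cells, 30.5 and 25.7 in resistant cells, 9.9 and 10.2 in sensitive CM, and 24.3 and 22.1 in resistant CM. ICE2 had the fewest reads of the 10 genes in sensitive cells, 79 and 468, and its high and low libraries were those of ICE1. It rose by 1.18 ± 0.15 in resistant cells (2.27-fold, adjusted p = 1.8e-05) and by 1.20 ± 0.15 in resistant CM (2.29-fold, adjusted p = 4e-05). With the correction the values were 0.48 and 0.47, both under the fold threshold, and the second also missed the FDR (adjusted p = 0.025 and 0.06).

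Both subunits moved by about the same amount as counted. ICE2 made up 11.6% and 15.6% of the ICE1 and ICE2 pair per length in sensitive cells, 15.4% and 13.9% in resistant cells, 12.8% and 17.4% in sensitive CM, and 16.9% and 14.8% in resistant CM. These shares overlapped between all groups, and the log2 fold changes of ICE2 and ICE1 differed by 0.09 in resistant cells and by 0.07 in resistant CM. With the correction ICE2 was 0.33 and 0.41 below ICE1. The GC content of ICE2 is the lower of the 2 (37.2% against 43.2%).

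**Figure D3:**
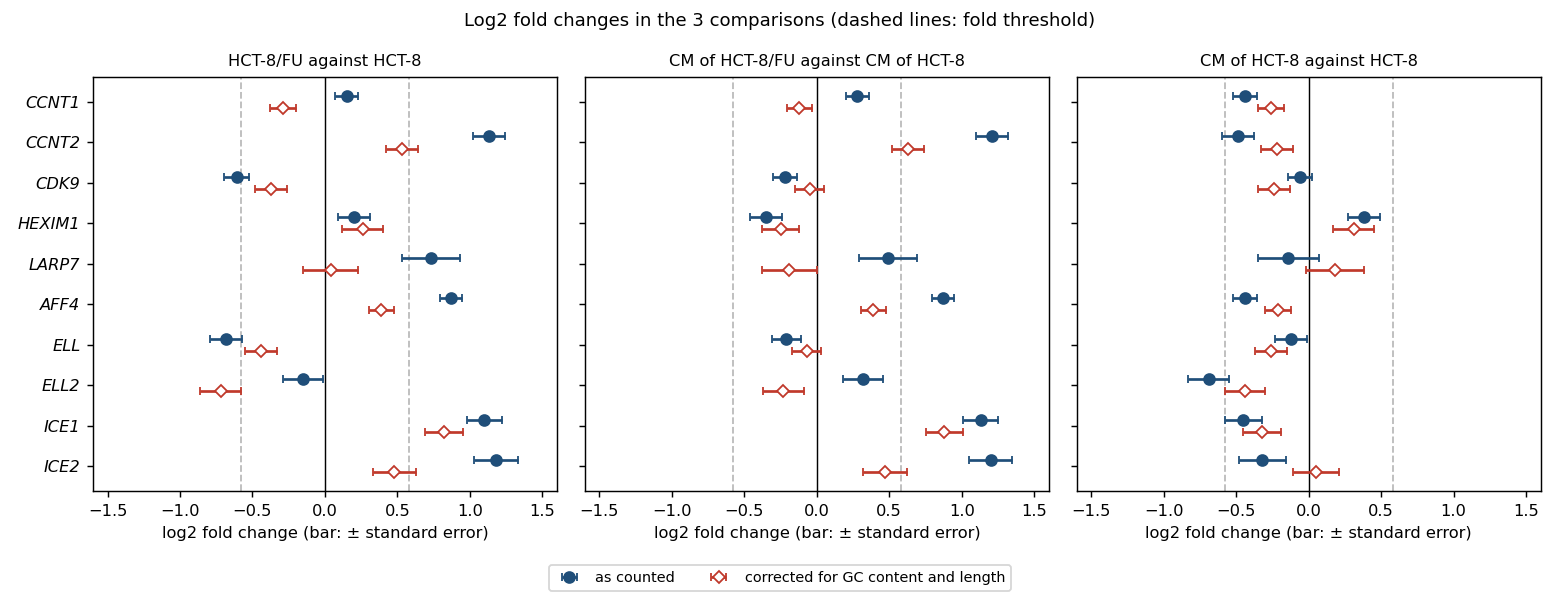
Log2 fold change (x axis, with bars of 1 standard error) of each gene (y axis) in the 3 comparisons, as counted (filled circles) and corrected for GC content and length (open diamonds). The dashed lines mark the fold threshold of 0.58 in either direction, and ICE1 lies past it on both scales in the first and the second panel (1.10 and 0.82, then 1.13 and 0.88).

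Fold change on GC content was set against all genes in bins of GC content. In the bin centred on 38.75%, which holds CCNT2 and ELL2, the median log2 fold change of 1688 genes was 0.59 in resistant cells, between a 10th percentile of -0.26 and a 90th of 1.43. CCNT2, at 1.13, lay above that median and ELL2, at -0.15, lay below it. ICE1 lies in the bin centred on 43.75%, whose 2094 genes had a median of 0.14 and a 90th percentile of 1.12 in resistant cells, and a median of 0.05 and a 90th percentile of 0.81 in resistant CM. ICE1 was under the first 90th percentile and above the second. The other genes called in resistant CM were under the 90th percentiles of their bins there. CCNT2 was at 1.21 against 1.29, ICE2 at 1.20 against 1.45 and AFF4 at 0.87 against 1.08. LARP7, at 0.73 in resistant cells, lay near the median of its bin, 0.76. CDK9 and ELL lie in the bin centred on 58.75%, where the median was -0.23 in resistant cells and the 10th percentile -0.84.

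**Figure D4:**
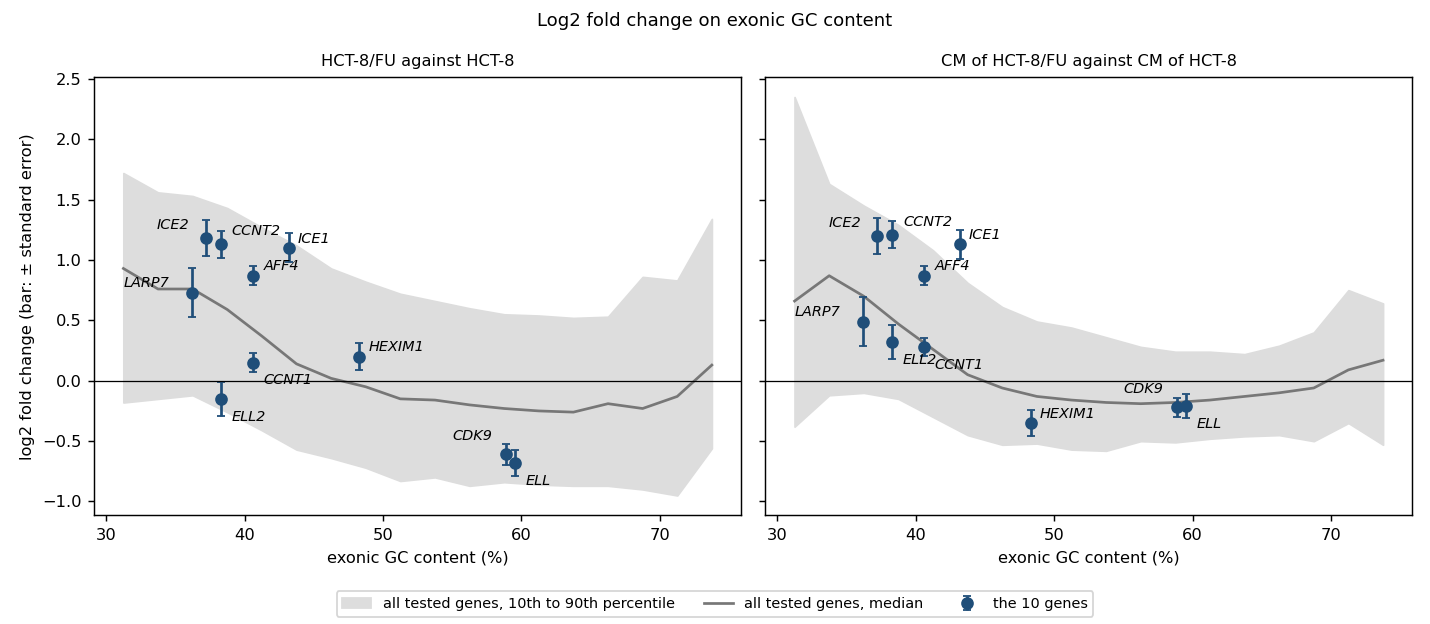
Log2 fold change (y axis, with bars of 1 standard error) of the 10 genes on their exonic GC content (x axis, %) in resistant cells against sensitive cells (left) and resistant CM against sensitive CM (right), over the median (line) and the 10th to 90th percentile (grey band) of all tested genes in bins of GC content. ICE1, ICE2, CCNT2 and AFF4 lie above the line in both panels. ELL2, at -0.15 and 0.32, lies below it in both, as do CDK9, ELL, LARP7 and CCNT1, some of them by little.

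Whether the 2 fold changes of a gene differ was tested directly, and the comparisons of resistant cells with sensitive cells and of resistant CM with sensitive CM share no libraries. Of all genes tested, 11.6% passed the FDR in this test. CDK9 and HEXIM1 passed it among the 10. The log2 fold change of CDK9 was 0.38 ± 0.12 lower in resistant cells than in resistant CM (a difference of -0.38, adjusted p = 0.047), and that of HEXIM1 was 0.55 ± 0.15 higher (adjusted p = 0.032). Neither passed with the correction (-0.32, adjusted p = 0.24, and 0.51, adjusted p = 0.13), which passed 8.21% of all genes, or without any 1 library of resistant cells or of resistant CM. The difference of HEXIM1 was 0.34 without sensitive CM replicate 1 and 0.73 without replicate 2. ELL (-0.47, adjusted p = 0.061) and ELL2 (-0.47, adjusted p = 0.15) did not pass, and ELL did with DESeq2's size factors (-0.50, adjusted p = 0.049). For the 4 genes called in both comparisons the differences were small with wide 95% intervals: -0.41 to 0.24 for CCNT2, -0.23 to 0.24 for AFF4, -0.40 to 0.33 for ICE1 and -0.47 to 0.43 for ICE2.

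The sensitive CM group was also set against sensitive cells, which asks how cells in CM of their own line differed from those in plain culture. This comparison shares its libraries of sensitive cells with the first comparison and its sensitive CM libraries with the second. ELL2 was the 1 gene of the 10 called, and it fell by 0.69 ± 0.14 in sensitive CM (adjusted p = 0.0029), beside 4.29% of all genes lower and 3.86% higher. With the correction ELL2 was at -0.44 (adjusted p = 0.058), and that fit called none of the 10, beside 2.69% of all genes lower and 2.74% higher. By the FDR alone 6 of the 10 passed, 5 lower and 1 higher, beside 10.4% and 9.04% of all genes. CCNT1 (-0.44), CCNT2 (-0.49), AFF4 (-0.44), ICE1 (-0.45) and ELL2 were negative, and HEXIM1 (0.38, adjusted p = 0.024) was positive. With the correction these were -0.26, -0.22, -0.21 and -0.32 for CCNT1, CCNT2, AFF4 and ICE1 and 0.31 for HEXIM1, and none of them passed the FDR. The median of the 10 was -0.38 against 0.01 for all genes, and -0.23 with the correction. CDK9 (-0.06), ELL (-0.12), LARP7 (-0.14) and ICE2 (-0.32) did not pass. Without sensitive CM replicate 1 CCNT2 (-0.61) and ICE1 (-0.65) were also called, and without replicate 2 HEXIM1 was (0.58). The same 3 genes missed the FDR when the other replicate was left out: CCNT2 was then at -0.34 (adjusted p = 0.091), ICE1 at -0.19 (adjusted p = 0.30) and HEXIM1 at 0.19 (adjusted p = 0.13).

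Per kilobase of exon, HEXIM1 (27 to 42.6 CPM per kb over the 8 libraries) and CDK9 (18.4 to 29.4) had the highest levels outside resistant cells, and ICE2 (0.618 to 1.9) the lowest in each library. In resistant cells AFF4, at 22.3 and 23.6 CPM per kb, lay above CDK9, at 18.4 and 19.1. Exonic length is the union over all annotated transcripts, 16010 bases for ICE2 and 3005 for CDK9, so levels between genes depend on that union. Some counts may also be shared with other genes: annotated exons on the opposite strand cover 1318 bases (16.3%) of LARP7, 520 bases (14.3%) of HEXIM1 and 473 bases (9.62%) of ELL, and no source used here says whether counting was stranded. The microRNA genes MIR3960 and MIR2861 share 175 bases (5.82%) of CDK9 on the same strand. Processed pseudogenes are annotated for ELL2 and LARP7 (4 each), ICE2 (2), AFF4 (1) and CCNT2 (1), so how reads were split with them is uncertain. In these bulk libraries, fewer cells of a kind and less RNA per cell cannot be told apart.

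The genes lie on different chromosomes, apart from AFF4, ELL2 and ICE1 on chromosome 5. In GRCh38 CCNT1 (ENSG00000129315) is at chr12:48688458-48716998, CCNT2 (ENSG00000082258) at chr2:134918235-134959342, CDK9 (ENSG00000136807) at chr9:127785679-127790792 and HEXIM1 (ENSG00000186834), a gene of 1 exon, at chr17:45148475-45152099. LARP7 (ENSG00000174720) is at chr4:112637077-112657696, AFF4 (ENSG00000072364) at chr5:132875395-132963634, ELL (ENSG00000105656) at chr19:18442663-18522116, ELL2 (ENSG00000118985) at chr5:95885098-95961851, ICE1 (ENSG00000164151) at chr5:5420664-5490220 and ICE2 (ENSG00000128915) at chr15:60419609-60479160.

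A wider list of 57 genes of transcription elongation and snRNA transcription was read in the same fit, and 56 of them passed the filter, AFF3 being the exception. In resistant cells 6 rose and 5 fell, beside 13.2% and 8.12% of all genes. The corrected fit called 3 higher and 5 lower there, beside 7.29% and 7.95% of all genes. In resistant CM 6 rose and 1 fell, beside 7.97% and 1.28% of all genes. The corrected fit called 3 higher and 0 lower there, beside 2.71% and 2.13% of all genes. The median log2 fold change was -0.08 and -0.07, against 0.01 and -0.06 over all genes. POU2F1, a factor that binds the octamer of snRNA promoters, rose by 1.53 ± 0.10 in resistant cells (adjusted p = 6e-08) and by 1.12 ± 0.10 in resistant CM (adjusted p = 2.4e-06). BDP1, a subunit of the RNA polymerase III initiation factor TFIIIB, rose by 1.40 ± 0.11 (adjusted p = 2.3e-07) and by 1.50 ± 0.11 (adjusted p = 7e-07). Both were also called with the correction, POU2F1 at 1.08 and 0.66 and BDP1 at 0.80 and 0.89. The other 2 snRNA gene activators of the list were not called.

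NELFE, a subunit of the negative elongation factor that P-TEFb opposes, fell by 0.85 ± 0.098 in resistant cells (adjusted p = 7.1e-06; -0.69 with the correction). The 1 gene of the list that fell in resistant CM was WRAP53, a Cajal body protein (-0.61 ± 0.12, adjusted p = 0.0018, and -0.52 with the correction, under the fold threshold). Of the 3 Cajal body genes on the list, 1 rose and 0 fell in resistant cells, and 1 rose and 1 fell in resistant CM. The corrected fit called 0 of them in resistant cells and 1, which rose, in resistant CM. Of the 5 SNAPc genes, whose complex binds snRNA promoters, 0 were called in either comparison. Of the 15 Integrator genes, whose complex cleaves snRNA ends, 1 rose and 1 fell in resistant cells, and 2 rose in resistant CM. The 6 tested genes of the super elongation complex on the list and the little elongation complex gene ZC3H8 were not called in either. These counts by complex stand beside 13.2% of all genes higher and 8.12% lower in resistant cells, and 7.97% and 1.28% in resistant CM. Whether a complex differed from all genes was not tested.

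In sensitive CM against sensitive cells, 0 of the 56 rose and 4 fell, beside 3.86% and 4.29% of all genes. The corrected fit called 1, which was lower, beside 2.74% of all genes higher and 2.69% lower. TCEA1, the elongation factor that rescues backtracked polymerase, fell by 0.74 ± 0.072 (adjusted p = 8.9e-06; -0.57 with the correction, under the fold threshold) and EAF1, a partner of the ELL factors, by 0.65 ± 0.089 (adjusted p = 0.00016; -0.64 with the correction). In the test of the difference between the cell and CM comparisons 8 of the 56 passed, 6 negative and 2 positive, beside 11.6% of all genes. With the correction 4 passed, all negative, beside 8.21% of all genes. TCEA1 (-0.77, adjusted p = 0.00017; -0.83 with the correction) was among the negative ones. The 2 positive ones were SUPT4H1, a DSIF subunit (0.66, adjusted p = 0.0067), and NELFCD, a NELF subunit (0.50, adjusted p = 0.027), and neither passed with the correction (0.63, adjusted p = 0.053, and 0.49, adjusted p = 0.055).

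For each gene called in at least 1 comparison, the protein-coding gene with the most similar pattern was sought among 10872 genes over the 8 libraries, by the root mean square difference of centred log2 CPM. The likest gene was SLC4A7 for CCNT2 (0.0374), GANAB for CDK9 (0.0423), ZNF184 for LARP7 (0.085), WDR35 for AFF4 (0.0346), MAP2K7 for ELL (0.0211), TOP1 for ELL2 (0.0654), REST for ICE1 (0.029) and LACC1 for ICE2 (0.079). Each value is the smallest of those over 10872 candidates in the same 8 libraries, so it is no test of a shared pattern. The genes' own root mean square deviations ran from 0.236 for CDK9 to 0.618 for CCNT2.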

How the data were processed

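The authors aligned the reads of each library to GRCh38 with HISAT2, used SAMtools 1.18 and counted reads per gene with HTSeq 0.11.2 on an Ensembl annotation. The deposited values used here are these raw counts, 1 table per library. The lines that name no gene entered no library size or test (no feature took 33.7% to 49.6% of a library's records, not aligned 3.58% to 29.6%). The authors also deposited 2 tables of their own DESeq2 comparisons (mean normalized counts, log2 fold changes, standard errors, Wald statistics and p-values), which were not used. GENCODE 44 gave gene names, positions, GC content and length over exons, where 56105 of 64253 identifiers were found, and a RefSeq table (GRCh38.p14) gave the promoters.

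The counts were fitted with edgeR 4.0.16 under R 4.3.3 (filterByExpr, TMM with sensitive-cell replicate 2 as reference, group means of all 8 libraries, quasi-likelihood test, Benjamini-Hochberg adjustment over all 20305 genes). The standard error is the log2 fold change over the square root of F. On simulated data for resistant against sensitive cells, the script recovered 83 of 105 genes (79%) changed by 1 on the log2 scale. It recovered 95 of 95 changed by 2, and made 17 false calls. Alternatives were DESeq2 1.42.0 and its size factors, another TMM reference, other filters on low counts, the compared groups alone, a replicate block, the FDR alone, the correction with and without the block, a term for libraries with many records not aligned, and leaving out each library. The correction subtracts from each library's log2 CPM a spline with 5 degrees of freedom on GC content and on log length, so it also removes any true change that follows them. The 10 genes, the wider list and the rules were chosen with earlier results of these data known. The rule named all 10 genes, for each comparison the 2 called genes of the wider list with the smallest p in each direction, and the likest gene among those of at least 5 CPM. A gene that the rule named is not reported here. Replicates of a group differed by more than sampling noise. Depth was lowest in resistant-cell replicate 2, with 5804124 reads on genes.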

Additional observations from a re-analysis of the deposited data

Results flagged for a closer look

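CDK9 and HEXIM1 stood out because their fold changes differed between the comparison of resistant cells with sensitive cells and that of resistant CM with sensitive CM, by edgeR's test of the difference itself. For CDK9 the difference of log2 fold changes was -0.38 (adjusted p = 0.047), from -0.61 in resistant cells and -0.22 in resistant CM. For HEXIM1 it was 0.55 (adjusted p = 0.032), from 0.20 and -0.35, and it moved to 0.34 without sensitive CM replicate 1 and 0.73 without replicate 2. Both values lay past the FDR by little: with the replicate block the adjusted p of CDK9 was 0.062, and with DESeq2's size factors that of HEXIM1 was 0.063. The cause of either difference was not tested.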

How the results depend on the processing

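In resistant cells 7 of the 10 genes were called, 5 higher and 2 lower, beside 13.2% and 8.12% of all genes. In resistant CM 4 were called, all higher, beside 7.97% of all genes higher and 1.28% lower. In sensitive CM 1 was called, lower, beside 3.86% higher and 4.29% lower. In the test of the difference between the cell and CM comparisons 2 passed, beside 11.6% of all genes. Correction for GC content and length, without and with the replicate block, gave 2, 2, 0 and 0. Without the block, the corrected fit called 7.29% of all genes higher and 7.95% lower in resistant cells, and 2.71% and 2.13% in resistant CM. It called 2.74% and 2.69% in sensitive CM, and 8.21% passed in the test of the difference. No share of all genes is given with the block or with a library left out. By the FDR alone 6 genes passed in sensitive CM (5 lower and 1 higher, beside 10.4% and 9.04% of all genes). Leaving out 1 library at a time gave 1 to 3 genes in sensitive CM (3 without sensitive CM replicate 1, 2 without replicate 2) and 0 to 3 in the test of the difference (0 without any 1 library of resistant cells or resistant CM, 1 without either library of sensitive cells, and 3, with LARP7, without sensitive CM replicate 2).

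Replicate numbers did not pair the samples: deviations of same-numbered libraries correlated at -0.0862 for sensitive cells and resistant cells, -0.0279 for the CM groups and 0.132 for sensitive cells and sensitive CM. With the replicate block the counts stayed at 7, 4 and 1, and 1 gene passed in the test of the difference. No crossed pairing was run, as no compared pair of groups was below -0.1.

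With the correction, CCNT1 was at -0.29 in resistant cells and -0.12 in resistant CM (-0.29 and -0.12 with the replicate block), LARP7 at -0.19 in resistant CM and 0.18 in sensitive CM (-0.18 and 0.15 with the block, and -0.011 in resistant cells), ELL2 at -0.23 in resistant CM (-0.23 with the block) and ICE2 at 0.050 in sensitive CM (0.053 with the block), all with turned direction. LARP7 in sensitive CM ranged from -0.58 to 0.34 when 1 library was left out. The differences between the cell and CM comparisons that lay near 0 also turned: when 1 library was left out they ranged from -0.21 to 0.059 for CCNT2, -0.20 to 0.72 for LARP7, -0.10 to 0.087 for AFF4, -0.25 to 0.21 for ICE1 and -0.18 to 0.17 for ICE2. That of AFF4 was -0.020 with DESeq2's size factors, -0.024 with DESeq2, -0.0043 with the correction (-0.0039 with the block), -0.049 with no filter and -0.047 with a term for libraries in which over 15% of records did not align. That of ICE2 was 0.015 with the correction (0.021 with the block) and 0.075 with that term. Of 740 fold changes of the 10 genes under alternatives, 652 kept direction and side of the threshold, 38 lost and 16 gained a call, and 34 turned. Another TMM reference library moved the median of all genes from 0.01 to 0.10 in resistant cells and lost CDK9 there. The causes were not tested. With 2 libraries a group, and 79 to 468 reads on ICE2 in sensitive cells, depth and replicate number limit the precision.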
